A study of Gallus gallus with 6 samples.

Results

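The tumour necrosis factor (TNF) superfamily of ligands and receptors was examined in RNA-seq libraries of macrophages from the ileum of broiler chickens. The genes were the rows of the deposited expression table whose symbol begins with TNFSF or TNFRSF and a number, together with LITAF, NGFR and EDAR. LTBR, also sought by name, was not analysed here. In all 23 of 27656 genes were chosen. They comprise 5 ligands, 6 receptors with a death domain, 2 decoy or secreted receptors and 9 receptors that signal through TRAF adaptors. LITAF completes the set. It is an endosomal membrane protein that was first described as an LPS-induced TNF factor, and RefSeq still lists TNF-alpha among the synonyms of the chicken gene. It is neither a ligand nor a receptor of the superfamily, and it is described separately.

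The cells were sorted by flow cytometry with KUL01, an antibody to a chicken mannose receptor. The LPS+LR21 group had received lipopolysaccharide (LPS), the outer-membrane endotoxin of Gram-negative bacteria, by injection and the bacterium Lactobacillus reuteri by gavage. The LPS group had the injection alone, so that the LPS stimulus was common to both groups and no uninjected birds were compared. Age, sex, LPS dose and the time between injection and sorting are not given in the sources used here. There were 3 libraries in each group, called LR1_2, LR3 and LR4 in the LPS+LR21 group and LPS1, LPS2 and LPS3 in the LPS group. Whether LR1_2 is a pool, and whether each library is a bird of its own, is not stated. All p-values therefore rest on the spread among these 6 libraries, which may be technical.

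TNF superfamily ligands are mostly trimeric membrane proteins that can be shed, and they bind receptors on the same or neighbouring cells. Receptors with a death domain recruit adaptors that can lead to caspase activation. The others bind TRAF proteins, which lead to NF-kB and kinase signalling, and soluble decoy receptors hold ligand away from signalling receptors. Macrophages respond to TNF through TNFRSF1A and TNFRSF1B and are themselves a source of several ligands.

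Total counts lay between 31284679 and 45492503 per library. Genes with a count above 0 numbered 22493, 18811 and 24539 in LR1_2, LR3 and LR4, against 23525, 23240 and 23087 in LPS1, LPS2 and LPS3. LR3 thus had the fewest genes detected, and the part of this in its values was not tested. For several lists of cell type markers the summed levels differed along with the groups. The sums of the dendritic, endothelial, thrombocyte, and B and plasma cell markers overlapped between the groups. All 15 macrophage markers were detected in every library, and their summed level was 2029.65, 4517 and 1949.9 FPKM in LR1_2, LR3 and LR4, against 7982, 6021 and 5969 FPKM in LPS1, LPS2 and LPS3. FPKM is a fragment count scaled to gene length and to the library total. The 11 epithelial markers summed to 5664, 1104 and 3829.9 FPKM in LR1_2, LR3 and LR4, against 630.0, 412 and 349 FPKM in the LPS libraries. FABP2 alone had 3636 FPKM in LR1_2. All 11 were fitted above 0, with a median log2 fold change of 2.46. Of these, edgeR's test called 3 higher and DESeq2 called 11, against 0.974% and 4.83% of all genes. KRT8, KRT19, CLDN7 and SI, also on the list, were not analysed here. The NK and cytotoxic cell markers summed to 2294, 2098 and 2001 FPKM in the LPS+LR21 libraries, against 715, 698 and 584 FPKM in the LPS libraries. Most of that sum was GNLY, whereas TBX21 had a count of 0 in all LPS+LR21 libraries. The B and plasma cell markers summed to 55.9, 174 and 49.5 FPKM in the LPS+LR21 libraries, against 125, 144 and 127 FPKM in the LPS libraries. Most of that sum was BTK and CD72, which were fitted below 0. Of the 8 tested genes of the list 5 were fitted above 0, with a median log2 fold change of 0.21, and IRF4 was higher in each LPS+LR21 library than in any LPS library. The 10 fibroblast and smooth muscle markers summed to 15.7, 21.9 and 14.3 FPKM in the LPS+LR21 libraries, against 36.5, 55.7 and 34.4 FPKM in the LPS libraries. COL1A2 and COL3A1 passed the test as lower, as did 0.0819% of all tested genes. The enteric glia and neuron markers summed to 27.1, 9.99 and 40.0 FPKM in the LPS+LR21 libraries, against 4.69, 0.902 and 1.37 FPKM in the LPS libraries, nearly all of it S100B in the LPS+LR21 libraries, while SOX10 was under 1 FPKM in every library. LR3 lay nearest to the LPS libraries for macrophage and epithelial markers. In bulk libraries fewer cells of a type and less RNA per cell cannot be told apart. The part of these markers in the results that follow was not tested.

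None of the 23 genes passed the test in either direction, although all had enough counts to be tested. TNFSF10, the ligand TRAIL, came nearest (adjusted p = 0.0552) and was higher in each LPS+LR21 library than in any LPS library. The 2 TNF receptors, TNFRSF1A and TNFRSF1B, had lower fitted values in the LPS+LR21 group. The quasi-likelihood test of edgeR, adjusted over 20745 genes by the Benjamini-Hochberg method with a threshold of 0.05, called 0.974% of all genes higher and 0.0819% lower in the LPS+LR21 group. A p that misses this threshold does not show that a gene was alike in the groups. At an unadjusted p under 0.05, 1 of the 23 genes was higher and 5 were lower, where 7.46% and 4.6% of all tested genes were. DESeq2 called 1 gene higher (TNFSF10) and 1 lower (TNFRSF1A), and its shares over all genes were 4.83% and 1.73%. Limma-voom with library quality weights called TNFSF10 higher and TNFRSF1A, TNFRSF1B, TNFRSF21 and LITAF lower, against 5.11% and 4.32% of all genes. Without LR3, edgeR called TNFSF10 higher and TNFRSF1A, TNFRSF1B and TNFRSF21 lower, against 4.83% and 3.82% of all genes, and without any other library it called no gene in the table. TNFSF10 alone was called, and no member was lower, with scaling by library totals (1.45% of all genes higher and 0.101% lower) and with no filter on low counts (1.04% and 0.0795%). The same held for limma-trend on log2(FPKM + 0.1), where 1.9% and 0.227% of all genes were called, and with 1 in place of 0.1, where 1.43% and 0.164% were. No member was called with RLE size factors (0.983% and 0.0819%) or among genes with a mean of at least 1 FPKM (2.15% and 0.422%).

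Most of the 23 genes, LITAF among them, were fitted below 0, as were most of all tested genes. The fitted log2 fold change was below 0 for 16 and above 0 for 7, and 16 were below 0 also with RLE size factors and with library totals. Over all tested genes 56.5% were fitted below 0. The median log2 fold change was -0.73 over the 23 genes and -0.14 over all tested genes. On counts scaled by library size and TMM factors (TMM-scaled counts), the groups did not overlap for 2 genes that were higher in the LPS+LR21 group (8.70% of the 23) and 5 that were lower (21.7%). The shares over all tested genes were 9.77% and 9.21%.

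**Figure D1:**
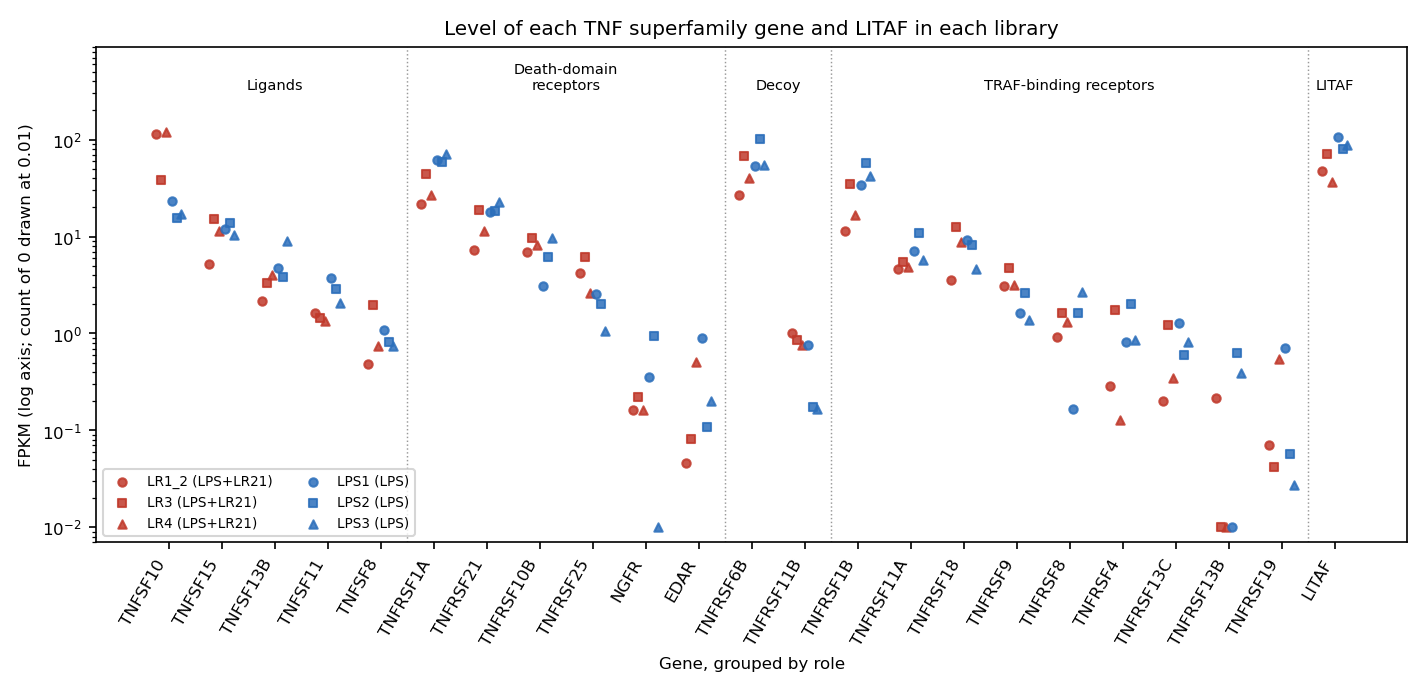
Level of each of the 23 genes in FPKM (log axis) in each library, grouped by role. LPS+LR21 libraries are red and left, LPS libraries blue and right, and a count of 0 is drawn at 0.01. TNFSF10 lay between 38.6 and 119 FPKM in the LPS+LR21 libraries and between 15.3 and 23.1 FPKM in the LPS libraries.

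**Figure D2:**
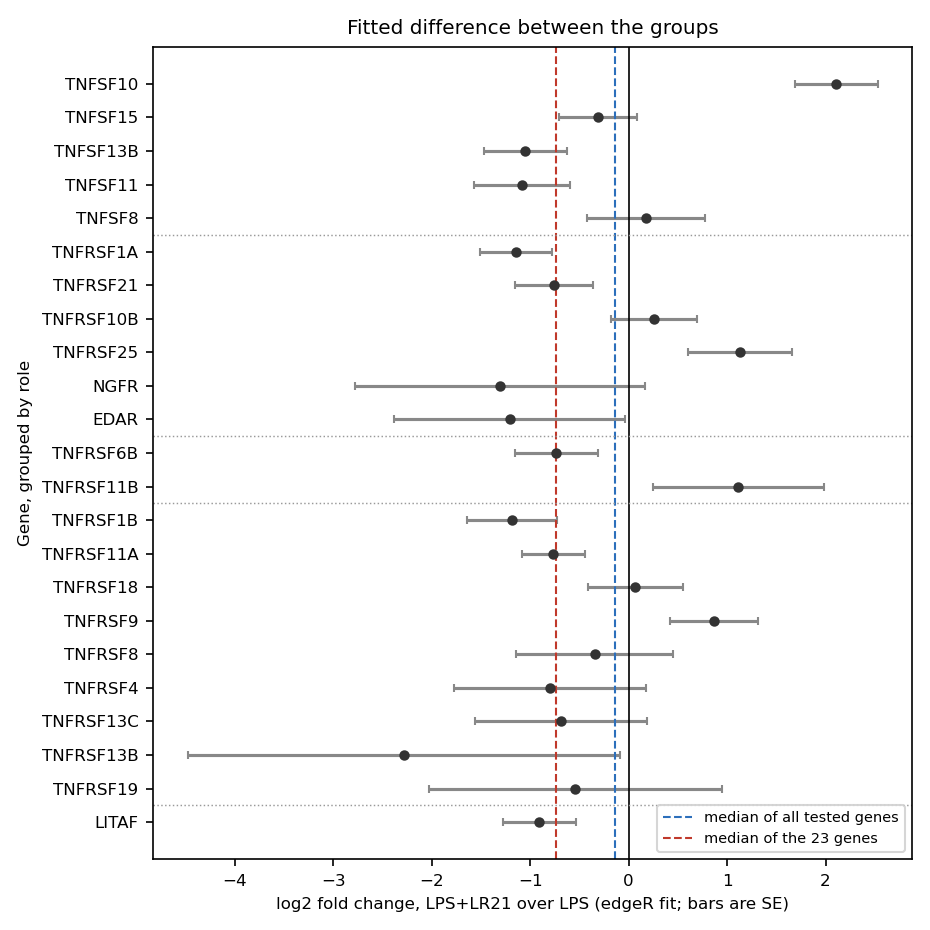
Fitted log2 fold change of each gene, LPS+LR21 over LPS, with bars for the SE and dotted lines between roles. The blue dashed line is the median of all tested genes (-0.14) and the red dashed line the median of the 23 genes (-0.73); TNFSF10 stands farthest to the right at 2.11.

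Among the ligands, TNFSF10 (ENSGALG00010018540, chromosome 9, 18994198 to 19054629, plus strand) was the most abundant in every library. It encodes TRAIL, which can trigger apoptosis through death-domain receptors. Its level was 114, 38.6 and 119 FPKM in LR1_2, LR3 and LR4, against 23.1, 15.3 and 17.3 FPKM in LPS1, LPS2 and LPS3. The groups did not overlap, and LR3 was the lowest of the LPS+LR21 libraries. The mean was 90.5 ± 45.0 FPKM in the LPS+LR21 group and 18.6 ± 4.05 FPKM in the LPS group (SD, n = 3 each), and the log2 fold change was 2.11 ± 0.42 (SE; adjusted p = 0.0552). This value lies close to the threshold: adjusted p was 5.42e-05 with DESeq2, 0.00116 with limma-voom and quality weights, 0.0425 with library totals and 0.00134 without LR3, and between 0.147 and 0.281 when any other library was left out. TNFSF10 made up 92.3%, 63.7% and 87.2% of the summed FPKM of the 5 ligands in LR1_2, LR3 and LR4, against 51.8%, 41.7% and 43.7% in the LPS libraries. Its annotated span overlaps FNDC3B on the opposite strand over 35527 bases. FNDC3B had 1.33, 4.62 and 2.11 FPKM in LR1_2, LR3 and LR4, against 9.31, 6.25 and 5.06 FPKM in the LPS libraries. TNFSF10 also overlaps GHSR on the same strand over 4698 bases, and GHSR had at most 0.233 FPKM in any library. Whether reads were shared among these overlapping genes was not tested.

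TNFSF10 was higher and the summed macrophage markers were lower in each LPS+LR21 library, so the ratio between them had to differ the same way and adds no evidence of its own. This ratio was 56.1, 8.54 and 61.0 FPKM per 1000 FPKM of summed macrophage markers in LR1_2, LR3 and LR4, against 2.90, 2.55 and 2.89 in the LPS libraries. The summed epithelial markers, like TNFSF10, were higher in each LPS+LR21 library than in any LPS library. A ratio to them therefore need not differ between the groups in the same way, and it was not computed. LR3 was the lowest LPS+LR21 library both for TNFSF10 and for the epithelial markers. Whether macrophages or other cells in the sort held the transcript was not tested.

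The other 4 ligands did not pass. TNFSF15, known as TL1A and a costimulator of T cells (ENSGALG00010028898, chromosome 17, 3233312 to 3250122, minus strand), had 5.26, 15.2 and 11.3 FPKM in LR1_2, LR3 and LR4, against 12.0, 13.9 and 10.4 FPKM in the LPS libraries. The groups overlapped, with LR1_2 alone low (log2 fold change -0.31 ± 0.40, adjusted p = 0.892). TNFSF13B, the B cell survival factor BAFF (chromosome 1, 140207881 to 140226140, minus strand), had 2.16, 3.35 and 4.01 FPKM in LR1_2, LR3 and LR4, against 4.72, 3.87 and 9.02 FPKM in the LPS libraries (log2 fold change -1.05 ± 0.42, adjusted p = 0.345). LPS3 was highest. The groups did not overlap on TMM-scaled counts but overlapped slightly in FPKM. TNFSF8, the CD30 ligand, lay at 0.488 to 1.95 FPKM in the LPS+LR21 libraries and 0.745 to 1.10 FPKM in the LPS libraries.

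TNFSF11, known as RANKL, acts through TNFRSF11A (RANK) and is held off by the secreted receptor TNFRSF11B (osteoprotegerin); in mammals this system governs osteoclasts and the M cells of gut lymphoid tissue. These 3 genes, among those described further because of their values, were compared within libraries. TNFSF11 (chromosome 1, 166399803 to 166420736, plus strand) had 1.64, 1.46 and 1.34 FPKM in LR1_2, LR3 and LR4, against 3.73, 2.86 and 2.06 FPKM in LPS1, LPS2 and LPS3. The groups did not overlap, and the LPS+LR21 libraries lay close together (log2 fold change -1.09 ± 0.49, adjusted p = 0.419). TNFRSF11A, a receptor of macrophage lineage cells (chromosome 2, 67948232 to 67974710, minus strand), had 4.65, 5.47 and 4.82 FPKM in LR1_2, LR3 and LR4, against 7.04, 10.7 and 5.70 FPKM in the LPS libraries (log2 fold change -0.77 ± 0.32, adjusted p = 0.368). TNFRSF11B had 1.01, 0.864 and 0.754 FPKM in LR1_2, LR3 and LR4, against 0.766, 0.173 and 0.167 FPKM in LPS1, LPS2 and LPS3. LPS1 stood apart from the other LPS libraries and lay within the LPS+LR21 range (log2 fold change 1.11 ± 0.87, adjusted p = 0.755). The ratio of TNFSF11 to TNFRSF11B was 1.63, 1.69 and 1.77 in LR1_2, LR3 and LR4, against 4.86, 16.6 and 12.3 in the LPS libraries. The groups did not overlap, and LR3 lay between LR1_2 and LR4. The ratios in LPS2 and LPS3 rest on TNFRSF11B counts of 24 and 27. TNFSF11 was lower in each LPS+LR21 library and TNFRSF11B was fitted above 0, so this ratio adds little evidence of its own. The ratio of TNFSF11 to TNFRSF11A was 0.353, 0.267 and 0.277 in LR1_2, LR3 and LR4, against 0.529, 0.267 and 0.361 in the LPS libraries, and the groups overlapped. These ratios were chosen after the values had been seen and have no test.

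TNFRSF6B, TNFRSF1A and TNFRSF1B were the 3 most abundant receptors in each library. Together they made up 64.8%, 69.7% and 66.3% of the summed FPKM of the 17 receptors in LR1_2, LR3 and LR4, against 76.3%, 80.0% and 77.0% in the LPS libraries. The receptor sum was 92.5, 209.6 and 126 FPKM in LR1_2, LR3 and LR4, against 195, 270.7 and 218 FPKM in the LPS libraries. LR3 was thus within the range of the LPS libraries while LR1_2 and LR4 were below it.

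TNFRSF1A, the death-domain receptor for TNF (ENSGALG00010024837, chromosome 1, 79458323 to 79466560, plus strand), had 21.6, 44.4 and 27.1 FPKM in LR1_2, LR3 and LR4, against 61.9, 58.4 and 70.4 FPKM in the LPS libraries. The groups did not overlap. The mean was 31.0 ± 11.9 FPKM in the LPS+LR21 group and 63.6 ± 6.17 FPKM in the LPS group (SD, n = 3 each; log2 fold change -1.15 ± 0.37 SE, adjusted p = 0.201). It was called lower by DESeq2 (adjusted p = 0.0411), by limma-voom with quality weights (adjusted p = 0.00474) and without LR3 (adjusted p = 0.00943), and adjusted p lay between 0.397 and 0.703 when any other library was left out. TNFRSF1B, the second TNF receptor, which lacks a death domain (ENSGALG00010017489, chromosome 21, 5445530 to 5458751, minus strand), had 11.5, 34.4 and 16.8 FPKM in LR1_2, LR3 and LR4, against 33.7, 57.9 and 42.3 FPKM in the LPS libraries. LR3 lay just above LPS1, so the groups overlapped (log2 fold change -1.18 ± 0.45, adjusted p = 0.309). The ratio of TNFRSF1B to TNFRSF1A was 0.531, 0.776 and 0.622 in LR1_2, LR3 and LR4, against 0.545, 0.991 and 0.601 in the LPS libraries, with overlap.

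In ratio to the summed macrophage markers the groups overlapped for both TNF receptors. Per 1000 FPKM of summed macrophage markers, TNFRSF1A had 10.6, 9.83 and 13.9 FPKM in LR1_2, LR3 and LR4, against 7.75, 9.70 and 11.8 FPKM in the LPS libraries. TNFRSF1B had 5.65, 7.62 and 8.64 FPKM in LR1_2, LR3 and LR4, against 4.22, 9.61 and 7.09 FPKM in the LPS libraries on the same scale. All 15 macrophage markers were fitted below 0, with a median log2 fold change of -1.39, where 56.5% of all tested genes were fitted below 0. VSIG4 alone passed edgeR's test as lower, and DESeq2 called 9 lower, against 0.0819% and 1.73% of all genes. On TMM-scaled counts 13 of them were lower without overlap of the groups, against 9.21% of all tested genes. The ratios depend on the sum of these markers and have no test. The part of macrophage content in the receptor values was not tested.

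TNFRSF6B, the decoy receptor that in humans binds FAS ligand, TNFSF14 and TNFSF15 (ENSGALG00010024963, chromosome 20, 9992282 to 9997088, minus strand), had 26.9, 67.4 and 39.8 FPKM in LR1_2, LR3 and LR4, against 53.2, 100.3 and 55.2 FPKM in the LPS libraries. The groups overlapped, with LPS2 highest and LR1_2 lowest (log2 fold change -0.73 ± 0.42, adjusted p = 0.601). Its ratio to TNFSF15 was 5.12, 4.43 and 3.52 in LR1_2, LR3 and LR4, against 4.43, 7.21 and 5.29 in the LPS libraries, with overlap.

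The other death-domain receptors had fitted values on both sides of 0, and none passed. TNFRSF21, known as DR6 (chromosome 3, 109734332 to 109767402, minus strand), had 7.28, 18.9 and 11.3 FPKM in LR1_2, LR3 and LR4, against 17.7, 18.2 and 22.6 FPKM in the LPS libraries (log2 fold change -0.75 ± 0.40, adjusted p = 0.530). LR3 alone of the LPS+LR21 group lay within the LPS range, and the gene was called lower without LR3 (adjusted p = 0.0353). TNFRSF10B, a receptor of the TRAIL-receptor kind that also serves as the entry receptor TVB of avian leukosis viruses (chromosome 22, 1325162 to 1331753, plus strand), had 6.86, 9.69 and 8.10 FPKM in LR1_2, LR3 and LR4, against 3.12, 6.18 and 9.60 FPKM in the LPS libraries. The groups overlapped through LPS3 alone, and LPS1 and LPS2 lay below each LPS+LR21 library (log2 fold change 0.25 ± 0.44, adjusted p = 0.927). The ratio of TNFSF10 to TNFRSF10B was 16.6, 3.98 and 14.7 in LR1_2, LR3 and LR4, against 7.42, 2.48 and 1.80 in the LPS libraries, where LR3 was below LPS1. TNFRSF10B overlaps RHOBTB2 on the opposite strand over 204 bases, and RHOBTB2 had 9.63, 3.43 and 7.57 FPKM in LR1_2, LR3 and LR4, against 1.64, 2.01 and 1.34 FPKM in the LPS libraries.

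TNFRSF25, known as DR3 and the signalling receptor of TNFSF15 (ENSGALG00010019028, chromosome 21, 590769 to 595534, plus strand), had 4.22, 6.21 and 2.63 FPKM in LR1_2, LR3 and LR4, against 2.56, 2.03 and 1.05 FPKM in the LPS libraries. The groups were apart in FPKM by a narrow margin between LR4 and LPS1, and they overlapped on TMM-scaled counts (log2 fold change 1.13 ± 0.53, adjusted p = 0.448). Here LR3 was the highest library. The gene overlaps ESPN, which encodes an actin-bundling protein of microvilli, on the opposite strand over 1019 of its 4766 bases. ESPN had 10.8, 2.77 and 8.13 FPKM in LR1_2, LR3 and LR4, against 2.75, 2.76 and 1.22 FPKM in the LPS libraries. Because the sources used here do not say whether counting used strand, reads of these overlapping genes may be shared. The ratio of TNFSF15 to TNFRSF25 was 1.25, 2.45 and 4.30 in LR1_2, LR3 and LR4, against 4.68, 6.86 and 9.93 in the LPS libraries. The groups were apart by a narrow margin between LR4 and LPS1, and this ratio has no test. NGFR, the low-affinity neurotrophin receptor, and EDAR, the ectodysplasin receptor of skin and feather development, were both under 1 FPKM in every library. NGFR had a count of 0 in LPS3, where a floor of 3 counts corresponds to 0.0127 FPKM, and EDAR ranged from 0.0458 to 0.505 FPKM in the LPS+LR21 libraries and from 0.108 to 0.899 FPKM in the LPS libraries.

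**Figure D3:**
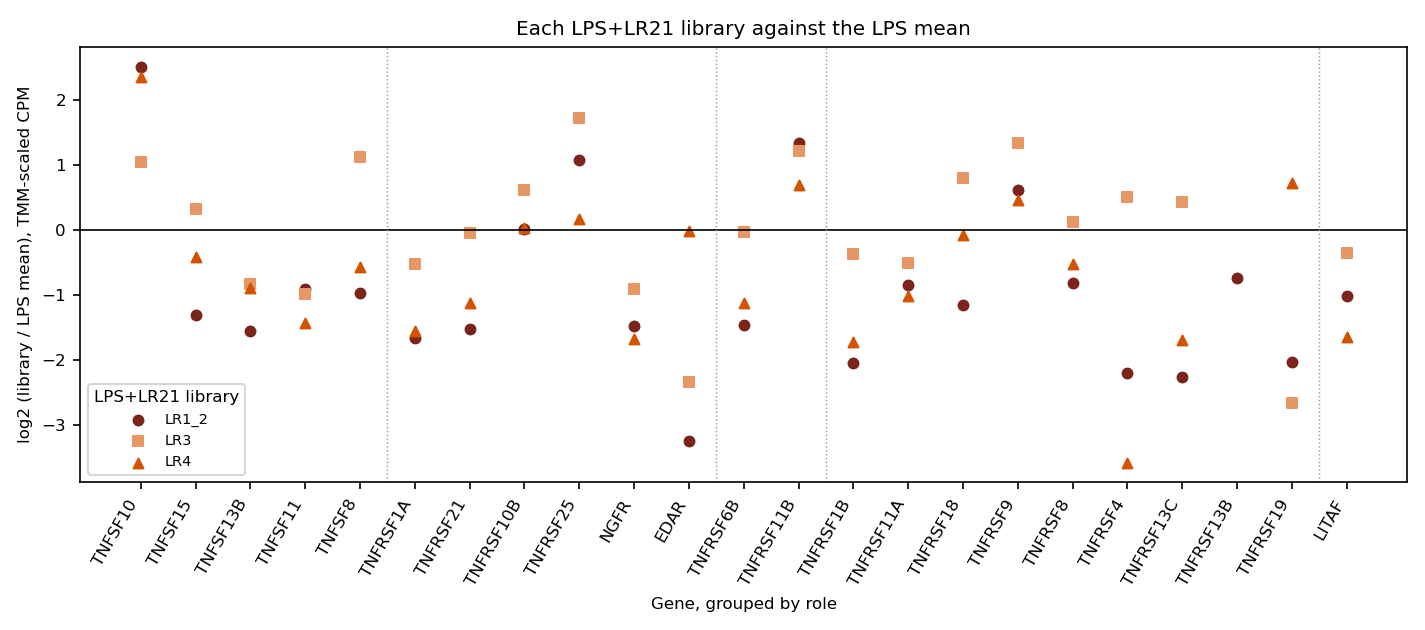
Log2 ratio of each LPS+LR21 library to the mean of the 3 LPS libraries, on TMM-scaled counts per library total (CPM), for each gene. The medians over genes were -1.14 in LR1_2, 0.05 in LR3 and -0.72 in LR4. TNFRSF13B has no point for LR3 and LR4, where its count was 0.

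Receptors best known from lymphocytes ranged from under 1 FPKM to 12.7 FPKM. LR3 was the highest LPS+LR21 library for most of them, as it was for 16 of all 23 genes. TNFRSF18, known as GITR, a T cell costimulatory receptor, had 3.53, 12.7 and 8.68 FPKM in LR1_2, LR3 and LR4, against 9.18, 8.20 and 4.59 FPKM in the LPS libraries, and the groups overlapped on both sides (log2 fold change 0.07 ± 0.48, adjusted p = 0.986). TNFRSF4, known as OX40, had 0.285, 1.73 and 0.127 FPKM in LR1_2, LR3 and LR4, against 0.823, 2.02 and 0.856 FPKM in the LPS libraries. It overlaps SDF4 on the same strand over 58 of its 8763 bases, and SDF4 had 22.4 to 29.3 FPKM over the 6 libraries. TNFRSF9, known as 4-1BB, had 3.06, 4.69 and 3.20 FPKM in LR1_2, LR3 and LR4, against 1.63, 2.60 and 1.37 FPKM in the LPS libraries. For TNFRSF9 the groups did not overlap, with LR3 highest (log2 fold change 0.87 ± 0.45, adjusted p = 0.518). Its whole annotated span lies within that of ERRFI1 on the same strand, which had 18.1 to 27.6 FPKM over the 6 libraries, so its level is uncertain. TNFRSF8, known as CD30, ranged from 0.911 to 1.65 FPKM in the LPS+LR21 libraries and from 0.168 to 2.68 FPKM in the LPS libraries, LPS1 being lowest. The 10 T cell markers summed to 129, 341 and 199.7 FPKM in LR1_2, LR3 and LR4, against 107, 127 and 102 FPKM in the LPS libraries, with LR3 highest.

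TNFRSF13C and TNFRSF13B, the BAFF receptor and TACI of B cells, were the partners of TNFSF13B in the set. TNFRSF13C had 0.202, 1.22 and 0.349 FPKM in LR1_2, LR3 and LR4, against 1.27, 0.604 and 0.821 FPKM in the LPS libraries. TNFRSF13B had a count of 0 in LR3, LR4 and LPS1, where 3 counts correspond to 0.0303 to 0.0395 FPKM, and at most 0.631 FPKM in the others. TNFRSF19, which is known from epithelial and neural progenitors, had 0.708 FPKM in LPS1 and 0.549 FPKM in LR4 and at most 0.0701 FPKM in the other libraries. None of these genes passed.

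LITAF (ENSGALG00010021744, chromosome 14, 936658 to 959869, plus strand) had 47.9, 71.2 and 36.3 FPKM in LR1_2, LR3 and LR4, against 105, 79.4 and 87.0 FPKM in the LPS libraries. The groups did not overlap, with LR3 the closest of its group to the LPS values. The mean was 51.8 ± 17.8 FPKM in the LPS+LR21 group and 90.6 ± 13.3 FPKM in the LPS group (SD, n = 3 each; log2 fold change -0.91 ± 0.37 SE, adjusted p = 0.357). Per 1000 FPKM of summed macrophage markers the LPS+LR21 libraries were the higher ones, with 23.6, 15.8 and 18.6 FPKM in LR1_2, LR3 and LR4, against 13.2, 13.2 and 14.6 FPKM in the LPS libraries. The groups were apart by a narrow margin between LR3 and LPS3. On the same scale TNFRSF25 was also higher, with 2.08, 1.38 and 1.35 FPKM in LR1_2, LR3 and LR4, against 0.321, 0.337 and 0.176 FPKM in the LPS libraries. For TNFRSF6B, TNFRSF21, TNFSF11 and TNFRSF11A the groups overlapped. These ratios have no test, and they depend on the marker sum, which was lower in each LPS+LR21 library. The span of LITAF overlaps a gene without a symbol on the opposite strand over 7502 bases, which had at most 2.41 FPKM.

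**Figure D4:**
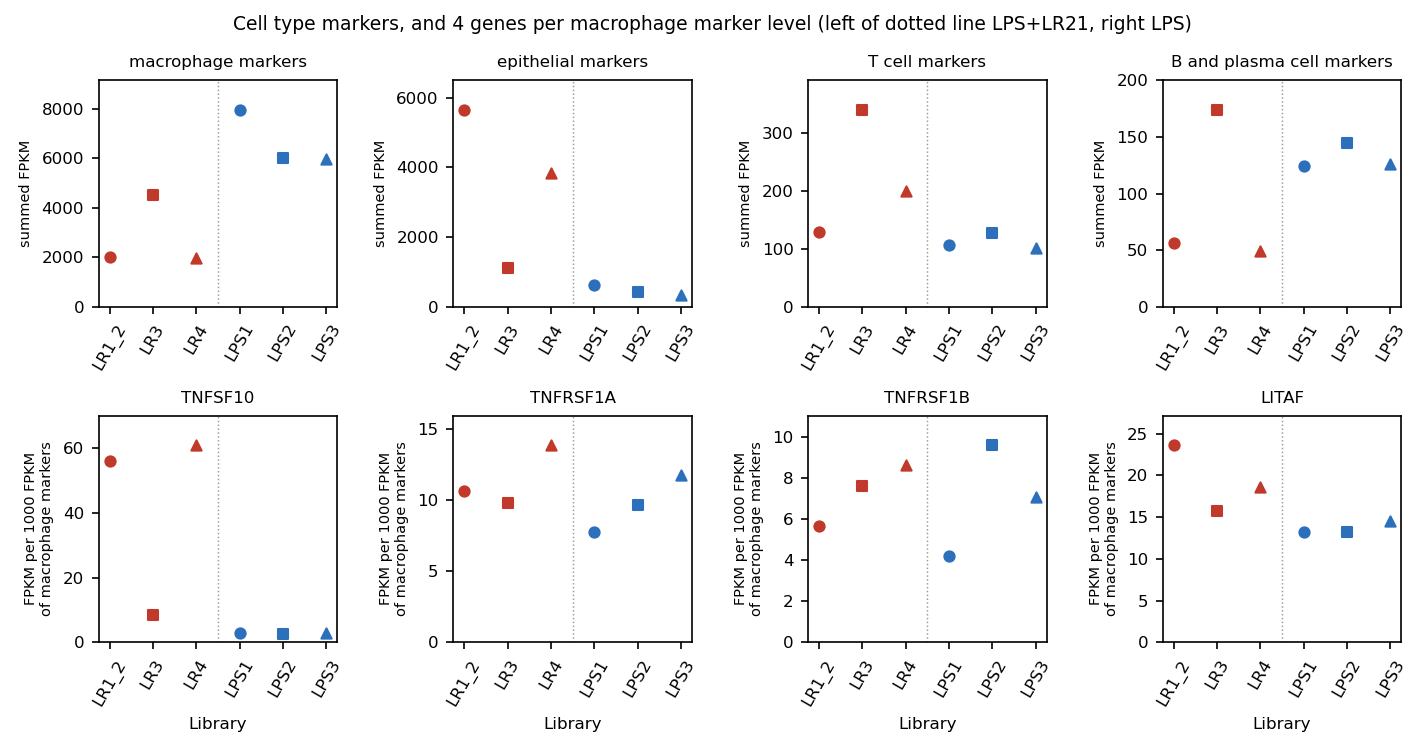
Upper row, summed FPKM of macrophage, epithelial, T cell and B and plasma cell markers in each library. Lower row, FPKM of TNFSF10, TNFRSF1A, TNFRSF1B and LITAF per 1000 FPKM of summed macrophage markers. LPS+LR21 libraries are left of the dotted line and LPS libraries right of it. The groups were apart for TNFSF10 and, by a narrow margin, for LITAF in the lower row, and overlapped for TNFRSF1A and TNFRSF1B. Ratios to the epithelial markers were not computed.

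Superfamily genes that carry other symbols were taken from a list of 12, of which 7 were matched to a row and tested, and TNF, LTA, LTB, CD70 and CD27 were not analysed here. FAS, a death-domain receptor that triggers apoptosis (ENSGALG00010022081, chromosome 6, 20018495 to 20030803, plus strand), was higher in the LPS+LR21 group and was the 1 of these 7 to pass. It had 53.2, 36.5 and 46.1 FPKM in LR1_2, LR3 and LR4, against 13.1, 13.7 and 13.7 FPKM in the LPS libraries. Its log2 fold change was 1.60 ± 0.28 (SE), with adjusted p = 0.0397 and DESeq2 adjusted p = 4.05e-05. Of all tested genes, edgeR called 0.974% higher and DESeq2 4.83%. The FAS call was lost without LPS1, LPS2, LPS3, LR1_2 or LR4 (adjusted p between 0.144 and 0.225), when no gene in the table passed. It was kept without LR3 (adjusted p = 0.00555). FASLG, the ligand of FAS, had 4.89, 6.76 and 2.73 FPKM in LR1_2, LR3 and LR4, against 7.43, 4.06 and 1.89 FPKM in the LPS libraries and did not pass. CD40LG, the ligand of CD40, did not pass either (0.95 ± 0.47 on the log2 scale, adjusted p = 0.485), with 2.36 to 3.26 FPKM in the LPS+LR21 libraries and 1.10 to 1.44 FPKM in the LPS libraries. The log2 fold change of CD40 itself, an activating receptor of macrophages and B cells, was -0.66 ± 0.61 (adjusted p = 0.818).

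Downstream of the receptors, a list of 52 adaptors, kinases, caspases, NF-kB subunits and regulators was used, of which 43 were matched to a row and tested. RELA, RELB, IKBKG, RIPK3, BIRC3, XIAP, RBCK1, RNF31 and MAP2K7 were not analysed here. None of the 43 passed edgeR's test. At an unadjusted p under 0.05, 4 were higher and 5 lower, and DESeq2 called 3 higher and none lower. The shares over all genes were 7.46% and 4.6% at that unadjusted p, and 4.83% and 1.73% with DESeq2. Their median log2 fold change was -0.19, with 19 fitted above 0 and 24 below. The 3 that DESeq2 called were TRAF4, an adaptor known from epithelia, with 11.2, 4.15 and 8.94 FPKM in LR1_2, LR3 and LR4, against 2.19, 3.03 and 1.84 FPKM in the LPS libraries; the Ras GTPase-activating protein gene DAB2IP; and TRAF3IP2, the Act1 adaptor of interleukin 17 receptors. Their log2 fold changes were 1.64, 1.94 and 1.82 (edgeR adjusted p = 0.105, 0.161 and 0.167). RIPK1, the kinase recruited to TNFRSF1A, had 11.9, 19.8 and 13.7 FPKM in LR1_2, LR3 and LR4, against 25.96, 31.9 and 26.1 FPKM in the LPS libraries (log2 fold change -0.997 ± 0.32, adjusted p = 0.202). As for TNFRSF1A, LR3 was the highest of its group and still below each LPS library. Without LR3, 3 of the 43 were called higher and 11 lower, against 4.83% and 3.82% of all genes in that fit.

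From a list of 27 symbols compiled for the TNF and NF-kB response, 22 were matched to 23 tested rows, and none passed edgeR's test. CXCL8, ICAM1, SELE, IER3 and CD83 were not analysed here. Whether TNF or NF-kB induces each gene of the list in these cells was not tested. At an unadjusted p under 0.05, 1 was higher and 3 lower, and DESeq2 called none higher and 2 lower. Of all genes 7.46% and 4.6% were higher and lower at that unadjusted p, and 4.83% and 1.73% with DESeq2. The median log2 fold change was -0.28. Those of smallest p were TNFAIP8L1 (-1.12, adjusted p = 0.187), the transcription factor gene CEBPB (-1.64, adjusted p = 0.229), the chemokine gene CCL5 (1.09, adjusted p = 0.280) and the cytokine gene IL1B (-1.33, adjusted p = 0.308). DESeq2's 2 calls were CEBPB and TNFAIP8L1, and induction of TNFAIP8L1 by TNF is not established here. The list's median log2 ratio to the mean of the LPS libraries was -1.40 for LR1_2, 0.12 for LR3 and -1.43 for LR4. The median for LR3 leaves out TNFAIP6, whose count there was 0. Without LR3, 9 were called lower and none higher, against 3.82% and 4.83% of all genes. Of 7 tested genes for shedding and processing of the ligands none passed; 2 were lower at an unadjusted p under 0.05, against 4.6% of all genes, and DESeq2 called none, against 1.73% of all genes lower. ADAM17, the protease that sheds TNF, had 0.537, 0.499 and 1.07 FPKM in LR1_2, LR3 and LR4, against 1.13, 1.96 and 1.61 FPKM in the LPS libraries (log2 fold change -1.33 ± 0.46, adjusted p = 0.239). RHBDF2, which carries ADAM17 to the cell surface, had 1.48, 3.76 and 0.926 FPKM in LR1_2, LR3 and LR4, against 5.62, 5.77 and 4.97 FPKM in the LPS libraries (-1.47 ± 0.54 on the log2 scale, adjusted p = 0.284). For both genes the groups did not overlap.

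Several members lie close together in the genome. TNFRSF1B and TNFRSF8 are 753 bases apart on the minus strand of chromosome 21, TNFRSF4 and TNFRSF18 are 6028 bases apart on its plus strand, and TNFSF15 and TNFSF8 are 27633 bases apart on the minus strand of chromosome 17. The log2 fold changes were -1.18 ± 0.45 for TNFRSF1B beside -0.34 ± 0.79 for TNFRSF8, and -0.79 ± 0.98 for TNFRSF4 beside 0.07 ± 0.48 for TNFRSF18.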

How the data were processed

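Sorted ileal macrophages were profiled in 3 LPS+LR21 and 3 LPS libraries made from polyadenylated RNA, per the labels' protocols. Tools listed without roles in the submitters' processing notes are HISAT2 2.0.4, StringTie 1.3.4d, cutadapt 1.9 and edgeR. The genome build and the strand setting of the counting are not given in the sources used here. Coordinates are those in the deposited table. The table holds whole-number counts, deposited by the authors without normalization, and FPKM as computed by the authors. Of the FPKM columns, 3 whose names match no single sample were left out. FPKM was recomputed for all libraries from the counts and their totals, with each gene's length taken from the ratio of count to deposited FPKM in the LPS libraries. All 9889 genes with at least 100 counts in each LPS library lay within 5% of the deposited values there. The lengths came from those same libraries, so close agreement was largely built in. The recomputed LPS+LR21 values were not checked against deposited ones. LPS columns were matched by group and number, while LR1_2, LR3 and LR4 were used as replicates of their group with no further identity.

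Counts were tested with edgeR 4.0.16 (R 4.3.3): filterByExpr, TMM factors, glmQLFit and glmQLFTest, two-sided, with no covariate, Benjamini-Hochberg adjusted over 20745 genes. A standard error is the absolute log2 fold change over the root of F. The common biological coefficient of variation was 0.774. Only the edgeR procedure was tested on simulated data. Alternatives were DESeq2 1.42.0, limma 3.58.1, other scalings and filters, and leaving out each library. Members and lists were chosen with earlier results of these data known. Every member is accounted for; values per library are given for those with a mean of at least 5 FPKM in a group, and for others chosen after their values were seen. The 23 members matched RefSeq (GRCg7b) by Entrez identifier, used for synonyms only. Floors cover counting error only.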

Additional observations from a re-analysis of the deposited data

How the results depend on the processing

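No paired analysis was possible because the 3 LPS+LR21 columns are numbered otherwise than the samples (one is LR1_2, another LR4), so no column has a certain replicate number. The sample titles number the libraries within each group and state no pairing between the groups. Matching numbers would therefore not by themselves have made pairs. The counts depended on the method. Of the 23 genes, 0 passed in either direction as reported; 1 was higher with DESeq2, library totals (a scaling that moved the median of all genes by 0.15), no filter, limma-trend with a pseudocount of 0.1 or 1 FPKM, and limma-voom with quality weights, and it was TNFSF10 each time. DESeq2 called 1 lower and limma-voom 4; DESeq2 gave 5 members no adjusted p. Leaving out a library gave 0 to 1 higher and 0 to 3 lower, and the range over all genes was 0 to 1086 higher and 0 to 859 lower, 0 in each direction for every library but LR3. All genes higher and lower numbered 202 and 17 as reported, 1002 and 359 with DESeq2, 1060 and 896 with limma-voom, and 394 and 47 with log2(FPKM + 0.1). Lower genes were 34 with log2(FPKM + 1) and 44 at a mean of at least 1 FPKM. Receptor-proximal genes called were 3 with DESeq2 and 11 with limma-voom (0 to 14 leaving out a library), response genes 2 and 8 (0 to 9), and shedding genes 1 with limma-voom (0 to 1). Genes under other symbols ranged from 0 to 1 leaving out a library. The median of the 23 stayed below 0, from -0.81 to -0.36 leaving out a library. Signs reversed only for genes whose adjusted p was 0.836 or more. With limma-voom this was TNFRSF19 (0.087), TNFRSF8 (0.26), TNFRSF18 (-0.47), NGFR (0.76) and TNFSF8 (-0.57). TNFRSF8 also reversed with log2(FPKM + 0.1) and log2(FPKM + 1) (0.31 and 0.012), and TNFRSF18 at a mean of at least 1 FPKM (-0.019). Leaving out a library, ranges crossing 0 were -2.16 to 2.11 for TNFRSF19, -2.61 to 0.18 for EDAR, -0.067 to 0.73 for TNFRSF10B, -0.87 to 0.44 for TNFRSF8, -0.43 to 0.46 for TNFRSF18, -0.71 to 0.027 for TNFSF15 and -0.66 to 0.55 for TNFSF8. The cause was not tested.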
